A study of Mus musculus with 24 samples.

Results

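Serpina1a, Serpina1b, Serpina1c, Serpina1d and Serpina1e, the mouse paralogs that encode antitrypsin, were 5 of the 45513 genes counted in sorted Atoh1+ cells of mouse intestine. They lie in a cluster on chromosome 12 and were chosen by their levels in mutant against wild-type small intestine (SI) in these same libraries. The genotype comparison in SI is therefore given below as a description without a test. All mice were C57BL/6, aged 8-16 weeks, and carried CreERT2 downstream of Atoh1 together with the R26RtdTom reporter. In WT mice (Atoh1(WT)CreERT2) the Atoh1 sequence was unaltered, and in 9S/T-A mice (Atoh1(9S/T-A)CreERT2) the 9 serine or threonine residues of the kinase target sites were replaced by alanine. Each mouse received 3 mg of tamoxifen, and live EpCAM+ tdTom+ epithelial cells were sorted the next day from SI or colon. Cre was expressed from the Atoh1 locus itself, so tdTom marked cells that had expressed Atoh1 and, after a day, possibly some of their descendants. Each genotype gave 6 libraries per tissue, numbered 2 to 7 in every group, with 3 female and 3 male numbers. The labels do not say that the numbers mark separate mice, so p-values measure the spread between these libraries.

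Antitrypsin is a secreted serpin that blocks serine proteases such as neutrophil elastase. Its reactive centre loop is a bait that the protease cleaves, after which the inhibitor traps it. The liver makes most of the plasma protein, and intestinal epithelium, including Paneth cells, is a known minor source. Humans have a single functional gene, whereas laboratory mice carry several tandem copies. The copies differ most densely around the reactive centre loop and are thought to differ in their target proteases.

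In the files' build, GRCm38, all 5 genes lay on the minus strand of chromosome 12. Serpina1b spanned 103728156 to 103830373, Serpina1d 103763594 to 103773592, Serpina1a 103853589 to 103863562, Serpina1c 103894926 to 103904887 and Serpina1e 103946931 to 103958975. The span of Serpina1b enclosed Serpina1d, but no exon base was shared between members. Serpina1c shared 429 exon bases with a gene on the opposite strand, and reads were counted by strand. Each gene had a coding sequence of 1239 bases, and 86 of these positions (6.94%) differed among the 5 genes. Pairwise identity ran from 96.29% to 98.47%, and Serpina1a and Serpina1c were the most alike. The 60 coding bases with the most differences, positions 1102 to 1161, are shown because they overlap the reactive centre loop. Most of the 86 differing positions lie outside this stretch. The capitals mark the 18 positions at which the genes differ.
Serpina1a: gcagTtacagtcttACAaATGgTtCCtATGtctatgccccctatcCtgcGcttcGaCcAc
Serpina1b: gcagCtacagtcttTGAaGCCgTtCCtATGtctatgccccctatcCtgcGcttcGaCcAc
Serpina1c: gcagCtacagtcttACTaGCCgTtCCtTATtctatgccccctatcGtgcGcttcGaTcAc
Serpina1d: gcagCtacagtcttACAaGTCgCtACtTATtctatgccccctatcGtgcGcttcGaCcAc
Serpina1e: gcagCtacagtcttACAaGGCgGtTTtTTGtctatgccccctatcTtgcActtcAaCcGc
The codons of the serpin hinge, the first part of the loop, began at coding position 1087 in all 5 genes, before the printed stretch. The difference in these letters is what allows a read from the loop to be assigned to a single paralog.

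Just before the start sites, the longest stretch that holds CCAAT and was identical in all 5 RefSeq promoters (GRCm38.p6) had 55 bases. It is shown from Serpina1b, at chr12:103738200-103738254 on the minus strand. The capitals mark CCAAT, a common promoter element, on the strand shown, and its reverse complement, attgg, is left in lower case.
Serpina1b promoter: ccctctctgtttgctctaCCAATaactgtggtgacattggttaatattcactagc
CCAAT, searched on both strands from 250 bases before to 50 after the start, was in 5 of 5 members and in 37.41% of 32851 promoters. The E-box letters CAGCTG and CAGATG, a kind of site that bHLH factors such as ATOH1 bind, were in 0 of 5 members and in 16.3% and 17.15% of promoters. These are letter matches in a short window and say nothing of binding. The members are tandem copies that share sequence there, so they do not count as 5 separate promoters.

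Total counts per library ranged from 36.0 to 65.8 M (M, mega). Levels are given as counts per M, scaled by TMM over the 24 libraries (CPM). Sex labels matched the data in 24 of 24 libraries. Secretory cell genes were high in WT SI, with Muc2, the goblet mucin, at 27638.0 ± 4256.7 CPM (SD, n = 6) and Lyz1, the Paneth lysozyme, at 26127.7 ± 4277.3 CPM. In WT colon they were at 12171.1 ± 1859.0 and 27.4 ± 10.1 CPM. The 24 libraries hold no tdTom- cells, so the purity of the sort was not tested.

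In SI, Serpina1b was the most counted paralog by a wide margin. Its level in WT SI had a lowest value of 22.8, a median of 43.1 and a highest of 65.8 CPM. In 9S/T-A SI the lowest was 70.3, the median 119.1 and the highest 134.8 CPM, so every mutant library was above every WT library. The ratio of the group means was 2.56 (43.7 ± 14.0 against 111.9 ± 25.1 CPM, SD, n = 6), and the fitted log2 fold change was 1.35 (SE 0.21).

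Serpina1a had a lowest value of 3.35, a median of 4.77 and a highest of 7.78 CPM in WT SI, and of 7.87, 13.2 and 15.5 CPM in 9S/T-A SI. The groups were just apart, with a log2 fold change of 1.27 (SE 0.20). Under DESeq2 size factors in place of TMM they overlapped. Serpina1d was at 3.74, 6.86 and 9.15 CPM (lowest, median, highest) in WT SI and at 9.99, 17.8 and 19.6 CPM in 9S/T-A SI. Its groups did not overlap under any of the 3 scalings tried, and its log2 fold change was 1.36 (SE 0.20).

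For the other two paralogs the groups overlapped. Serpina1c was at 4.38, 5.74 and 6.80 CPM in WT SI and at 6.69, 12.9 and 14.2 CPM in 9S/T-A SI, with a log2 fold change of 1.05 (SE 0.17). Serpina1e was at 2.68, 3.83 and 5.55 CPM in WT SI and at 4.90, 8.90 and 10.6 CPM in 9S/T-A SI, with a log2 fold change of 1.11 (SE 0.19). In both cases the 9S/T-A library numbered 2 was the one that lay within the WT range. Thus 3 of 5 members had every mutant library above every WT library, against 1.08% of the 16236 genes tested in SI. In that comparison 1.03% of genes were called higher in 9S/T-A and 0.905% lower. Since the same contrast chose the members, nothing is read from these shares. In bulk libraries, more cells of a type and more RNA per cell cannot be told apart.

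**Figure D1:**
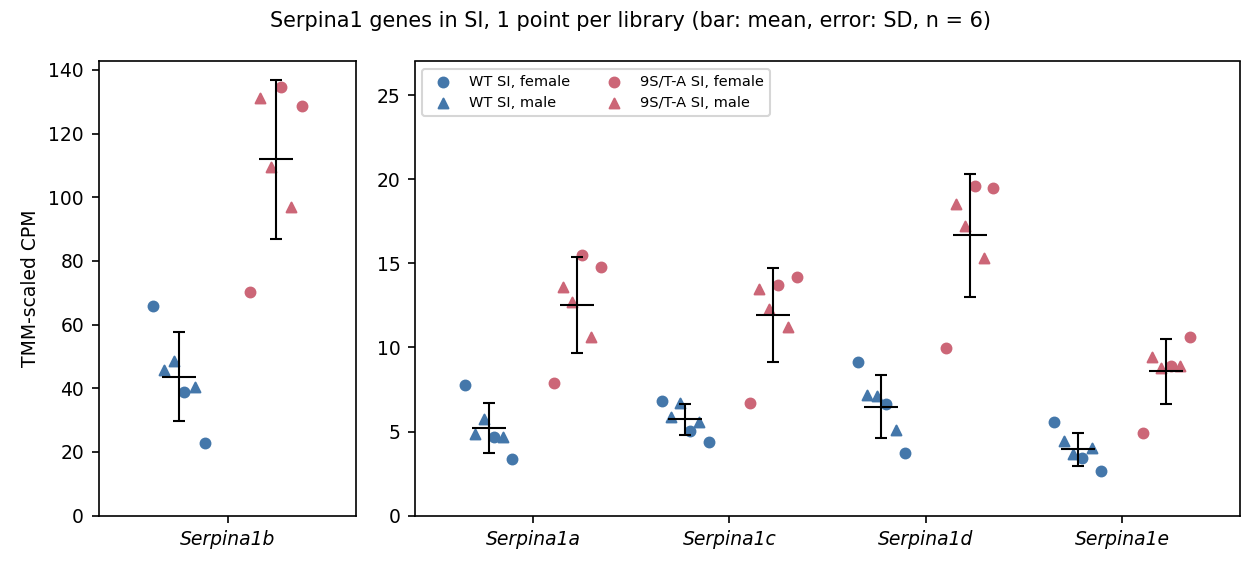
TMM-scaled CPM of the 5 Serpina1 genes in the SI libraries, 1 point per library, with circles for females and triangles for males, bars for the mean and error bars for the SD (n = 6). Serpina1b has its own axis, and the lowest mutant point of each gene is the library numbered 2, which for Serpina1c and Serpina1e falls within the WT points.

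Summed over the 5 genes, WT SI had 65.0 ± 19.1 CPM (SD, n = 6), from 36.9 to 95.0, and 161.6 ± 35.9 CPM in 9S/T-A SI, from 99.7 to 192.5. The ratio of means was 2.48. Libraries of the same number differed widely in their ratio. For number 2 the sum was 95.0 CPM in WT and 99.7 in 9S/T-A, a ratio of 1.05. For number 7 it was 36.9 and 187.8 CPM, a ratio of 5.09. The remaining numbers lay between 2.24 and 3.29. Number 2 held the highest WT library and the lowest mutant library, and without it in both genotypes the ratio of the sums was 2.95 and the log2 fold change of Serpina1b was 1.61. The WT library numbered 7, the lowest of its group, also had the fewest counts of all libraries.

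In colon the paralogs were close to the limit of counting. Serpina1b had between 9 and 28 counts per library in WT colon and between 5 and 35 in 9S/T-A colon. Its levels were 0.148, 0.248 and 0.420 CPM (lowest, median, highest) in WT and 0.0753, 0.182 and 0.430 CPM in 9S/T-A, and the groups overlapped. In colon 0 of 5 members had every mutant library above every WT library, against 0.488% of genes. The other 4 genes had at most 8 counts in any colon library. Serpina1a, Serpina1d and Serpina1e were at 0 in at least 1 library of each colon group. Pooled over the 6 libraries, the 5 genes had 167 counts in WT colon and 149 in 9S/T-A colon.

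The colon libraries did not enter the choice of the genes, so genotype was tested there. Serpina1b alone passed the filter on low counts. The fitted log2 difference, 9S/T-A minus WT, was -0.34 (SE 0.39), with edgeR adjusted p = 0.968, and 0.318% of the 16997 genes tested were called. Without the filter all 5 genes could be fitted, and 0 of 5 were called, with 0 at an unadjusted p under 0.05. The fitted values ran from -0.60 (SE 0.94) for Serpina1e to 0.46 (SE 0.61) for Serpina1c, with edgeR adjusted p from 0.895 to 0.977. DESeq2, run on the filtered genes, called 0 as well, beside 250 of the 16997 genes. At this depth a change of the size seen in SI would hardly have been detectable for the 4 lesser paralogs. Whether such a change would have been called for Serpina1b (SE 0.39) was not tested. The lack of a call therefore does not show that it was absent.

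**Figure D2:**
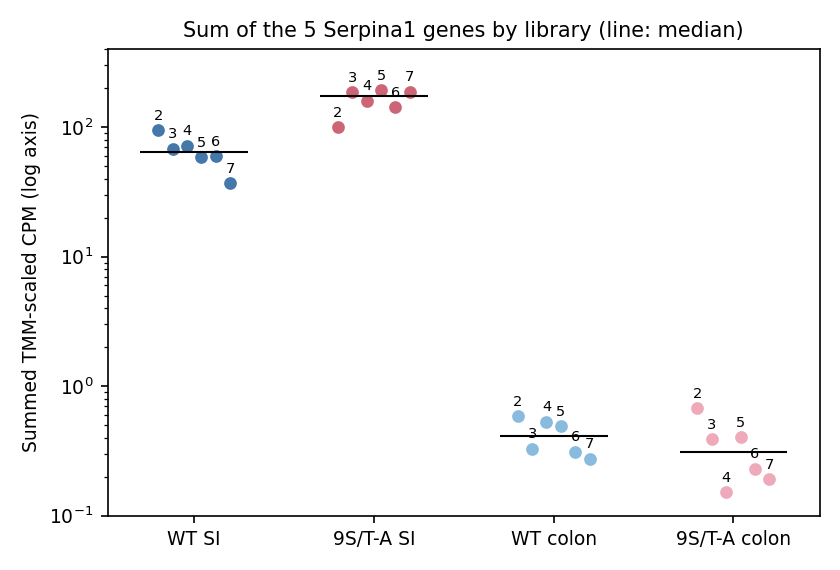
Summed TMM-scaled CPM of the 5 Serpina1 genes by library on a log axis, with the replicate number at each point and a line at the median of each group. The SI libraries lie between 36.9 and 192.5 CPM and the colon libraries between 0.151 and 0.676 CPM.

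The gap between tissues was far larger than the gap between genotypes. The mean sum in SI was 154.5 times that in colon for WT (0.421 ± 0.131 CPM in colon, SD, n = 6) and 475.2 times for 9S/T-A (0.340 ± 0.194 CPM). These comparisons use the SI libraries that chose the genes and are descriptions. Colon minus SI, the fitted log2 difference ran from -7.48 (SE 0.27, Serpina1c) to -6.85 (SE 0.42, Serpina1e) in WT. In 9S/T-A it ran from -9.06 (SE 0.31, Serpina1b) to -8.10 (SE 0.29, Serpina1c). All 5 genes had every SI library above every colon library in both genotypes, against 19.6% of genes tested in WT and 18.4% in 9S/T-A. Scaled by plain totals the median difference of the 5 genes was -6.34 in WT and -7.81 in 9S/T-A, closer to 0 than under TMM.

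Sex was balanced over genotype and was not used to choose the genes. In SI the sums of females and males were 63.5 ± 29.4 and 66.6 ± 6.09 CPM in WT and 160.0 ± 52.3 and 163.2 ± 21.8 CPM in 9S/T-A (SD, n = 3). In WT the females held the highest (number 2) and the lowest (number 7) of the 6 sums, and in 9S/T-A the lowest, number 2, was a female. With genotype in the model, 0 of 5 genes were called for sex in SI, 0 had an unadjusted p under 0.05, and DESeq2 called 0. Of all 16236 genes tested, edgeR called 0.0554% and DESeq2 called 36 genes. Female minus male, the log2 differences ran from -0.13 (SE 0.17, Serpina1c) to 0.05 (SE 0.20, Serpina1a), with edgeR adjusted p from 0.825 to 0.979. In colon Serpina1b had a log2 difference of 0.56 (SE 0.37, edgeR adjusted p = 0.406), and 0.294% of genes were called.

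**Figure D3:**
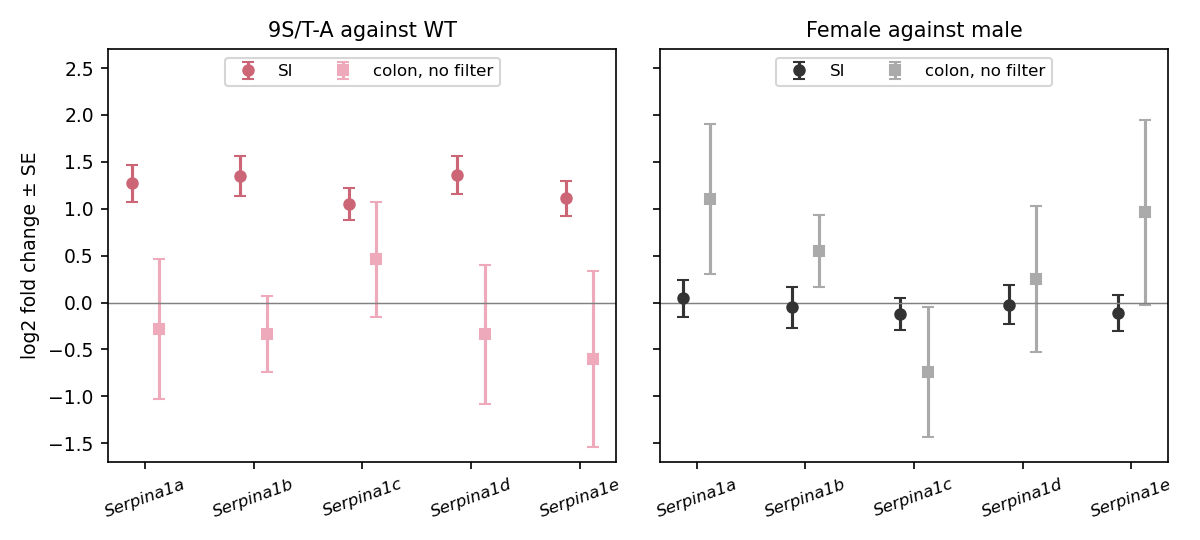
Fitted log2 fold changes with their SE for 9S/T-A against WT and for females against males, by gene, in SI and, without the filter on low counts, in colon. The SI genotype values lie between 1.05 and 1.36 and are a description, while the colon values have SEs from 0.40 to 0.94 for genotype.

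Serpina1b held most of the sum in every SI library, from 61.7 to 69.2% in WT and from 67.8 to 70.5% in 9S/T-A. Serpina1b took 66.6 ± 2.59% of the summed counts in WT SI (SD, n = 6) and 69.3 ± 1.19% in 9S/T-A SI. Serpina1d, second by share, took 10.3 ± 0.329% in 9S/T-A SI and from 8.50 to 11.3% in the WT libraries. The next were Serpina1c at 9.15 ± 1.54% in WT and 7.35 ± 0.402% in 9S/T-A, Serpina1a at 8.04 ± 0.634% and 7.75 ± 0.292%, and Serpina1e at 6.21 ± 0.780% and 5.32 ± 0.585%. In the pooled colon counts Serpina1b took 63.5% in WT and 61.1% in 9S/T-A. Per kilobase of counted exon, the order in WT SI was Serpina1b (18.1 ± 5.82 CPM per kb), Serpina1d (4.65 ± 1.34), Serpina1c (4.21 ± 0.687), Serpina1a (2.83 ± 0.811) and Serpina1e (2.45 ± 0.608). There, Serpina1d and Serpina1c differed by less than either SD, as did Serpina1a and Serpina1e. In 9S/T-A SI the order of the means was the same, at 46.3 ± 10.4, 12.0 ± 2.62, 8.76 ± 2.05, 6.84 ± 1.55 and 5.30 ± 1.19 CPM per kb. In that group Serpina1d exceeded Serpina1c by more than either SD, and the lower neighbours were closer together than the larger of their SDs. These SDs are between libraries. Within each single 9S/T-A SI library the same order held, whereas in WT SI it did not hold in every library.

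The genes also varied together among libraries of a group. Over the 12 SI libraries, as deviations from the group means of log2 CPM, the pairwise Pearson correlations of the 5 genes ran from 0.873 to 0.965. The levels share libraries and, as the next values show, reads.

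How far the 4 lesser paralogs were measured apart from Serpina1b depends on 50-base reads. Of all 50-base windows in its transcripts, a gene had to itself 70.55% for Serpina1b, 65.37% for Serpina1e, 49.07% for Serpina1d, 42.38% for Serpina1a and 25.84% for Serpina1c. Over 1 main transcript per gene the share was lower for Serpina1b (64.21%) and Serpina1e (64.42%), and for Serpina1a it was 19.15%, below that of Serpina1c. Per the file headers, primary alignments were counted, which assigns an ambiguous read to a single gene. If reads from Serpina1b alone were spread evenly over its transcript and placed evenly over the genes with the identical window, Serpina1a would receive 12.31 counts for every 100 at Serpina1b with the transcript of 1394 bases. It would receive 7.80 with that of 1762 bases. The observed ratio, pooled over libraries, was 11.8 in WT and 11.2 in mutant SI.

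For the other genes the observed values lay within the placement range, at its edge or above it. For Serpina1c the placement gave 7.61 to 12.04 and the libraries 13.0 in WT and 10.7 in mutant SI. For Serpina1d it gave 9.45 to 13.59 against 14.8 and 14.9 observed. For Serpina1e it gave 5.28 to 7.07 against 8.99 and 7.75 observed. Gm8893, an unprocessed pseudogene between the members that shares windows with them, is a further case. The placement gave it 6.00 to 8.63 per 100 counts at Serpina1b, against 8.63 observed in WT and 8.37 in mutant SI. Its log2 fold change in SI was 1.30 (SE 0.21), within the range of the 5 members, and it is given without a test because it shares reads with them. The pooled counts at Serpina1a, Serpina1c and Gm8893 in 9S/T-A SI were thus within what reads of Serpina1b could give by placement alone. Those at Serpina1d and Serpina1e were above it. In WT SI the pooled counts at Serpina1c, Serpina1d and Serpina1e were all above it. By library in 9S/T-A SI, Serpina1d ran from 14.1 to 15.7 per 100 counts at Serpina1b, above the placement range in each. Serpina1e ran from 6.58 to 9.21 and Gm8893 from 7.46 to 9.00, each partly within the range. How many reads came from each paralog was not tested. The sum over the 5 genes depends less on this placement than each single level.

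**Figure D4:**
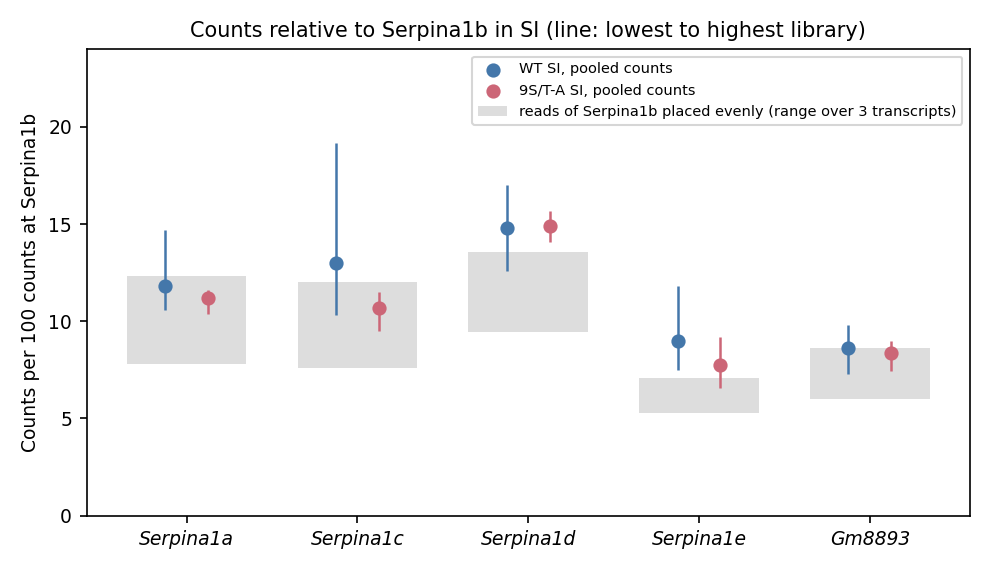
Counts per 100 counts at Serpina1b in the SI libraries of both genotypes, with points for pooled counts and lines from the lowest to the highest library. Grey bars span the values that even placement of Serpina1b reads would give over 3 transcripts, and the pooled points of Serpina1a, Gm8893 and, in 9S/T-A, Serpina1c lie within or at the edge of them.

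The library farthest from the others in these ratios was WT SI number 7. It had 14.7 counts of Serpina1a, 19.2 of Serpina1c and 11.8 of Serpina1e per 100 of Serpina1b, each the highest of the 12 SI libraries. It was also the library with the lowest Serpina1b count, 713.

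Neighbouring genes on chromosome 12 were looked at next. Of 67 other genes within 1 Mb of it, Gm8893 left aside, 19 were tested in SI, with a median log2 fold change of 0.01, and 0 were called by edgeR, with 3 at an unadjusted p under 0.05. In colon 20 were tested and 0 were called by edgeR, with 3 at an unadjusted p under 0.05. For comparison, 2556 of all 16236 genes tested in SI had an unadjusted edgeR p under 0.05. In colon 1497 of 16997 did. The unadjusted counts here and below are to be read beside these shares. Among other Serpina genes of the same chromosome, Serpina6, the corticosteroid carrier of plasma, had 0 counts in 24 of 24 libraries, which allows up to 0.00975 CPM over the WT SI libraries. Serpina1f, a further member of the clade by name, had at most 3 counts in any library. Serpina10, an inhibitor of coagulation factor Xa, had the opposite tissue pattern to the 5 genes, at 0.177 ± 0.169 CPM in WT SI and 2.38 ± 0.913 CPM in WT colon (SD, n = 6).

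Genes related to antitrypsin were counted in 7 lists of 181 genes. In SI 110 were tested, 2 were called higher and 2 lower in 9S/T-A, and their median log2 fold change was 0.05 beside 0.00 for all genes tested. The share of all genes called was 1.94%. Of 14 other serpins tested, Serpinf2, which encodes the plasmin inhibitor alpha2-antiplasmin, was higher in the mutant, at 41.6 ± 5.85 CPM beside 27.7 ± 3.68 CPM in WT SI (log2 fold change 0.58, SE 0.11, edgeR adjusted p = 0.0101). It too was nearly absent from colon, at 0.267 ± 0.0793 CPM in WT. Of 13 other secreted protease inhibitors tested, 0 were called, with 4 at an unadjusted p under 0.05, and their median was 0.28.

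Among the 17 serine and matrix proteases tested, 1 was called. Mmp7, the Paneth matrix protease that activates defensins, was lower in the mutant, at 440.0 ± 160.7 CPM beside 1047.4 ± 173.0 CPM in WT SI (log2 fold change -1.25, SE 0.22, edgeR adjusted p = 0.0072). Elane, neutrophil elastase and the classic target of antitrypsin, had 1 count in all 24 libraries together. Of 15 other liver plasma proteins tested, Apoc2, a cofactor of lipoprotein lipase, was higher (log2 fold change 0.70, SE 0.16, edgeR adjusted p = 0.0384) and Saa1, an acute phase protein, lower (log2 fold change -2.51, SE 0.40, edgeR adjusted p = 0.00402). Ttr, which carries thyroid hormone, did not pass, with edgeR adjusted p = 0.427 and a log2 fold change of -0.33 (SE 0.19).

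Of the 25 liver-enriched factors and acute phase signalling genes tested in SI, 0 were called by edgeR and 4 had an unadjusted p under 0.05. Hnf4a was at 647.3 ± 51.3 and 691.6 ± 91.5 CPM in SI and Cebpa at 39.1 ± 5.14 and 36.4 ± 3.21 CPM. Of the 24 genes for folding and export in the endoplasmic reticulum, 0 were called by edgeR in SI, with 1 at an unadjusted p under 0.05. Lman1, a cargo receptor that carries antitrypsin out of the endoplasmic reticulum, was at 141.9 ± 9.63 and 137.2 ± 20.8 CPM. Of 2 other Serpina genes of the cluster tested, 0 were called, with 0 at an unadjusted p under 0.05.

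In colon 109 of the related genes were tested and 1 was called. Spink4, a secreted protease inhibitor of goblet cells, was higher, from 1557.3 ± 195.2 to 2467.9 ± 461.6 CPM (log2 fold change 0.68, SE 0.12, edgeR adjusted p = 0.0287). The call was lost without any 1 of 6 libraries (WT colon 2, 4, 5 or 7, or 9S/T-A colon 4 or 5). The median over the related genes was 0.04, beside 0.00 for all genes tested.

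Some markers of cell types moved with genotype in SI, and their sums are given beside the Serpina1 values. The 12 Paneth markers summed to between 63065.3 and 106159.7 CPM in WT SI and between 51432.5 and 79991.6 in 9S/T-A SI. Of them 1 was called higher and 4 lower, and Mmp7, given above, is among the 4. Of these 12, 9 had an unadjusted p under 0.05 and 2 had a positive log2 fold change (median -0.50). The 10 goblet markers summed to between 316643.5 and 445199.6 CPM in WT and between 322133.5 and 510705.5 in 9S/T-A, with 0 called and 3 at an unadjusted p under 0.05. Of these 10, 9 had a positive log2 fold change (median 0.27). The 12 enterocyte markers summed to between 2465.7 and 6899.2 CPM in WT and between 4019.7 and 8645.8 in 9S/T-A, and to at most 248.3 CPM in colon. None of the 12 was called by edgeR, and 4 had an unadjusted p under 0.05, while all 12 had a positive log2 fold change (median 0.39). The part of these cell types in the Serpina1 levels was not tested. The 10 liver markers summed to between 582.8 and 1115.0 CPM in WT SI and between 480.4 and 1113.2 in 9S/T-A SI, of which Cps1, a urea cycle enzyme that intestine also makes, took 820.0 ± 161.0 and 701.4 ± 208.2 CPM. The list had at least 10 counts in every library for 7 of 10 genes in WT SI and 5 of 10 in 9S/T-A SI. Among its members, Mup20 had 0 counts in 24 libraries, Fgb at most 0.0232 CPM in any library, and Alb was at 0.878 ± 0.577 CPM in WT and 0.338 ± 0.237 in mutant SI. Of the remaining markers tested in SI, edgeR called 1 of 6 for colonocytes (lower, the Saa1 given above), 1 of 8 for enteroendocrine (higher) and 1 of 5 for tuft cells (lower). In these lists 1, 5 and 3 genes had an unadjusted p under 0.05. Their median log2 fold changes were -0.11, -0.58 and -0.81, and 2, 1 and 0 genes were positive. It called 0 of 5 for stem, 0 of 7 for liver, 0 of 3 for pancreatic acinar and 0 of 4 for leukocyte cells. There 1, 3, 1 and 1 genes had an unadjusted p under 0.05.

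Genes that followed the summed Serpina1 level most closely were ranked as a description. Over deviations from the group means in the 12 SI libraries, among 12484 genes with a mean log2 CPM of at least 1, Gm8893 came first (Pearson r = 0.960). It was followed by Klk1b11, a kallikrein-family gene (0.947), Pon2, a paraoxonase (0.890), the processed pseudogene Gm3788 (0.876), Map1lc3a (0.858), Dedd (0.854), Fam3c (0.851) and Ramp1 (0.851). Klk1b11 had the opposite tissue order, at 2.59 CPM in WT SI and 13.8 CPM in WT colon. Over all 24 libraries the closest were Ifi27l2b (0.995), Scamp5 (0.995), Gsta1 (0.993), Serpinf2 (0.993) and Gsta4 (0.993), each higher in SI than in colon. Those 24 points fall into 2 tissues, and the 12 share depth and sort with the sum, so the correlations carry no p. Gsta1 and Gsta4 encode glutathione transferases, and Gsta1 was at 212.2 CPM in WT SI, 354.1 in 9S/T-A SI and 4.81 in WT colon.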

How the data were processed

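Messenger RNA of sorted EpCAM+ tdTom+ cells was sequenced by the authors as 50 bp single-end stranded reads in 24 libraries (4 groups of 6). The labels name TopHat2 2.1.1, GRCm38.p3 and featureCounts 1.5.2, and the authors deposited raw counts per Ensembl gene without normalization. Per the file headers, counting was over exons, by strand and at primary alignments. GENCODE M21 named 44671 of the 45513 genes (98.15%), and 60 pairs of same-group libraries held 0 identical pairs.

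The main test was the quasi-likelihood test of edgeR 4.0.16 (R 4.3.3, filterByExpr, TMM, two-sided, Benjamini-Hochberg over all genes tested, called under 0.05) for genotype within each tissue and for sex with genotype as covariate. The script was tested on simulated data. DESeq2 1.42.0, other scalings and filters, the replicate number as a block, sex as covariate and leaving out libraries were alternatives. Sequences came from GENCODE M21 transcripts and RefSeq promoters (GRCm38.p6, 5 of 5 members matched). Limits that a count of 0 allows used 3 counts per group and cover counting error only. Named genes were the 5 members, list genes called in either tissue (up to 4 per list), 10 genes named whatever their result (1 is not reported here), and the 8 and 5 genes most like the sum. Markers, Gm8893 and the hinge were described in addition. The members and lists were chosen with earlier results of these data known.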

Additional observations from a re-analysis of the deposited data

Results flagged for a closer look

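In 24 sets of 6 libraries (5 genes and their sum in 4 groups), 3 held a library far from the rest by Dixon's criterion, which chance meets in about 1 of 20 sets. Serpina1e in the 9S/T-A SI library numbered 2 was at 4.90 CPM (187 counts), below the 8.78 to 10.6 CPM of the other 5 mutant libraries. The same library was the lowest of its group for the other 4 genes too. Serpina1a in WT colon number 5 was at 0.101 CPM (7 counts), above 0 to 0.0329 CPM in the rest. Serpina1c in WT colon number 6 was at 0.0822 CPM (5 counts), above 0.0145 to 0.0304 CPM in the rest. The causes were not tested.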

How the results depend on the processing

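The 5 SI log2 fold changes kept their sign under every alternative run, and the ratio of the sums stayed between 2.29 and 2.74 without any 1 library. Leaving out number 2 in both genotypes, an alternative chosen after seeing the data, moved that ratio to 2.95. No member was called for genotype in colon or for sex under any alternative. The replicate numbers were not taken to pair libraries, since same-numbered deviations correlated at or under 0.1 for at least 1 number in each comparison (WT and 9S/T-A SI from -0.01 to 0.51, colon from 0.02 to 0.73), and a library correlated best with its own number for 2 of 6 in SI and 4 of 6 in colon. Between SI and colon it did so for 5 of 6 in WT (r from 0.09 to 0.46) and 6 of 6 in 9S/T-A (0.10 to 0.54), a hint from the data and not from the labels. With the number as replicate block the median SI log2 fold change of the members was 1.28, and Serpina1b in colon had -0.41 (edgeR adjusted p = 0.584). The block raised the calls in colon from 54 to 385 genes and in SI from 315 to 477. Whether the numbers mark a shared mouse or batch was not tested. The main fits and their SEs, those between tissues included, leave any such pairing out. With the block the median tissue difference of the members was -7.03 in WT and -8.56 in 9S/T-A. Related genes called in SI were 4, and 7 with DESeq2, which called 782 of all genes tested there, and 3 to 6 without 1 library. In colon the count of 1 became 3 with DESeq2 (which called 250 of all genes), 3 with plain totals and 2 with no filter. It became 5 with the replicate block, 3 with sex as a covariate, and 0 to 2 without 1 library. The median tissue difference of -7.05 in WT became -6.34 with plain totals, and that of -8.59 in 9S/T-A became -7.81, and without 1 library ran from -9.04 to -8.47. In SI plain totals shifted the median of all genes by -0.11. Sex differences near 0 changed sign when 1 SI library was left out, ranging from -0.117 to 0.164 for Serpina1a, -0.248 to 0.0871 for Serpina1b, -0.16 to 0.10 for Serpina1d and -0.259 to 0.0196 for Serpina1e. The causes of these moves were not tested. Depth limits the colon values, where the 5 genes together had 10 to 55 counts per library.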
